A study of Neurospora crassa with 14 samples.

Results

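Growth on acetate needs a small set of enzymes that turn a compound of few carbon atoms into sugar. Acetyl-CoA synthetase activates acetate, isocitrate lyase and malate synthase carry the glyoxylate cycle that makes malate from acetyl-CoA without loss of carbon dioxide, and phosphoenolpyruvate (PEP) carboxykinase starts gluconeogenesis by converting oxaloacetate to PEP. In the filamentous fungus Neurospora crassa these steps were defined by acetate non-utilizer (acu) mutants, and their transcripts are known to be low on sugar and high on acetate. Described here are 5 genes chosen by symbol, of 9552 genes in the tables: acu-5 (NCU06836, acetyl-CoA synthetase), acu-3 (NCU04230, isocitrate lyase), acu-9 (NCU10007, malate synthase), acu-6 (NCU09873, PEP carboxykinase) and acu-15 (NCU06656, a transcriptional activator of acetate use). All 5 were listed and given an adjusted p in each table.

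Messenger RNA was sequenced in 14 libraries of shaken mycelial cultures grown for 16 h at 32 °C with 1.5% sucrose as carbon source, so none of the groups was on acetate. The groups were strains with a deletion of sds3 (NCU01599), rlp1 (NCU09007), rlp2 (NCU02898) or eaf-3 (NCU06788) and wild type, with 2 strains each, and the strain N6279 with 5 ul or with 0 ul of Trichostatin A (TSA), with 2 biological replicates each. Both TSA groups are the same strain: it is his-3, so histidine was supplied, and it carries pNCU05173::hph together with pNCU07152::nat-1. TSA inhibits histone deacetylases, and the deleted genes belong to a study of the deacetylase complexes RPD3L and RPD3S, which asked how their loss affects transcription. The final TSA concentration is not given in the sources used here.

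The authors' deposited tables hold 1 fold change per gene and comparison, with no value per library, so depth and the spread between the 2 libraries of a group were not seen. All fold changes and adjusted p-values below come from these tables, and ± gives a standard error worked back from each deposited p. The words rise and fall are kept for genes with a deposited adjusted p under 0.05. These are bulk cultures, in which fewer cells of a type and less RNA per cell cannot be told apart. The 4 deletion comparisons share the wild type libraries, so a high or low wild type value would move a gene in all 4. Each deleted gene was looked up in the comparison of its own deletion: by the authors' deposited tables eaf-3 was at 0.202% and rlp2 at 13.0% of wild type, but sds3 at 58.9% and rlp1 at 49.0%. The deletion of sds3 and of rlp1 is thus given here as labelled. The median gene moved by -0.08 to 0.07 on the log2 scale in the 5 tables.

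acu-6 rose in all 5 comparisons, and each of the other 4 genes passed in at most 1. acu-9 rose and acu-5 fell in the sds3 deletion strains, acu-3 fell in the eaf-3 deletion strains, and acu-15 passed in none. The genes of the 2 enzymes of the glyoxylate cycle thus did not pass as a pair: acu-9 passed without acu-3 in one deletion, and acu-3 without acu-9 in another. They were not tested against each other. In total 8 of the 25 values of the 5 genes passed.

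The sds3 deletion strains had the most calls, with 2 of the 5 genes higher and 1 lower. Of all genes tested in that comparison 19.0% were higher and 15.7% lower. In the rlp1 deletion strains 1 gene was higher and 0 lower, against 14.6% and 8.61% of all genes. In the rlp2 deletion strains 1 was higher and 0 lower, against 6.99% and 4.02%. In the eaf-3 deletion strains 1 was higher and 1 lower, against 20.2% and 11.5%. Under TSA 1 was higher and 0 lower, against 5.15% and 3.62%. In the authors' own category, which also asks for an absolute log2 fold change over 2, the counts higher and lower were 2 and 0 for sds3 (5.17% and 1.47% of all genes), 1 and 0 for rlp1 (4.57% and 0.538%), 0 and 0 for rlp2 (2.04% and 0.179%), 0 and 1 for eaf-3 (10.8% and 0.318%) and 0 and 0 for TSA (2.12% and 0.562%). With 5 genes, these counts are too few to set apart from such shares. At an unadjusted p under 0.05, 4 genes passed in the sds3 comparison, 2 each in those of rlp2 and eaf-3, and 1 each in those of rlp1 and TSA.

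**Figure D1:**
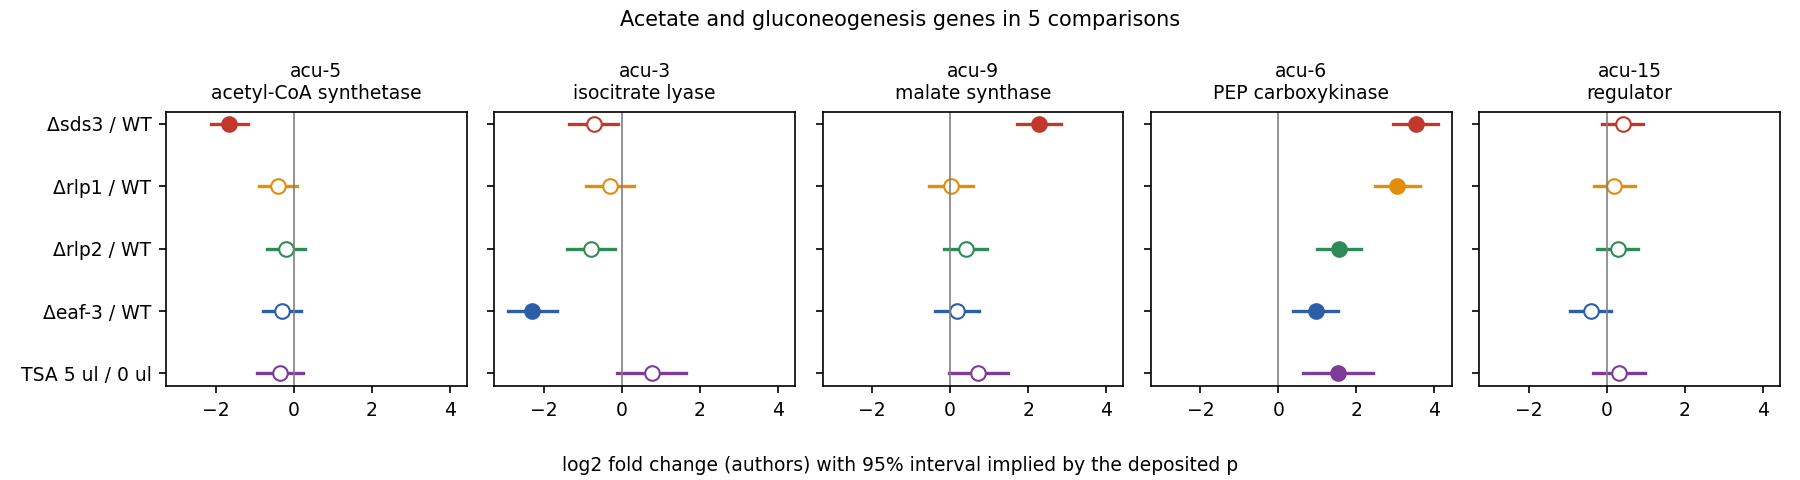
Log2 fold change (x axis) of each acetate or gluconeogenesis gene (panels) in the authors' deposited table of each comparison (rows), with the 95% interval implied by the deposited p; filled points have an adjusted p under 0.05. acu-6 lies right of 0 in every row, from 0.95 to 3.52, while acu-15 is open in every row.

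Levels in each group can be given only as implied means. They were computed from the deposited average of the deletion set and the 4 fold changes, on the assumption, which cannot be checked in the tables, that the average weighs its 10 libraries equally. Divided by the annotated gene span, the deposited average was 1339 per kb for acu-6, 1316 for acu-5, 1198 for acu-9, 357 for acu-3 and 282 for acu-15. On this per-length scale acu-6, acu-5 and acu-9 lay at percentiles 92.9, 92.7 and 91.8 of 9476 genes, and acu-3 and acu-15 at 72.7 and 66.7. This average pools groups that differ: in wild type alone the implied mean of acu-6 was 261 per kb, near that of acu-15 (259) and below those of acu-3 (560.3), acu-9 (642) and acu-5 (1748), while it was 2994 and 2166 per kb in the sds3 and rlp1 deletion groups. None of the fold changes of the 5 genes rests on a group near 0.

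**Figure D2:**
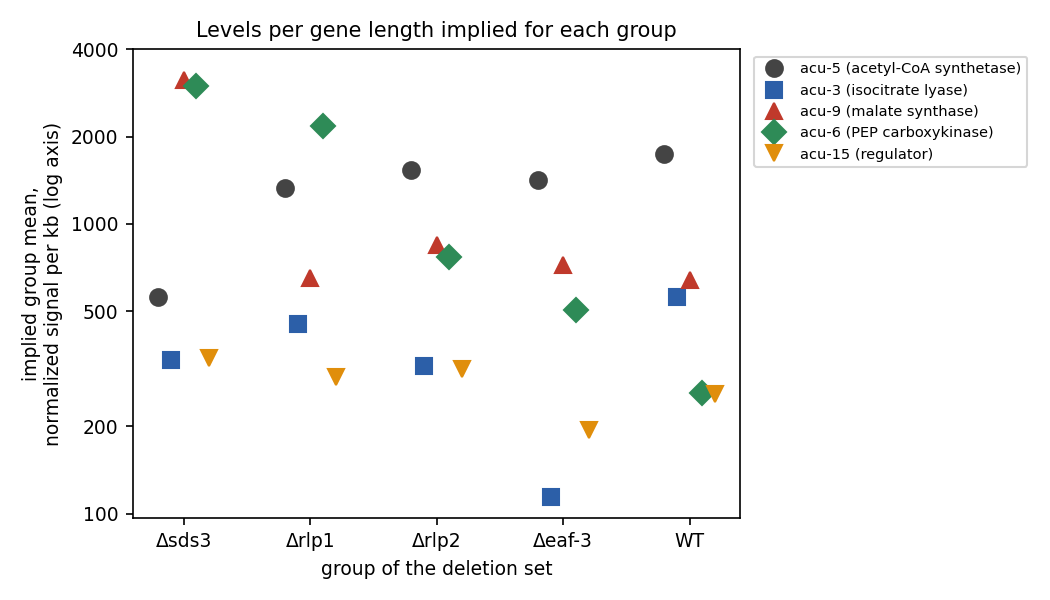
Implied group mean of normalized signal per kb of gene span (y axis, log scale) for the 5 genes in the groups of the deletion set (x axis), with 1 value per group and no error because the tables hold none per library. acu-6 has 2994 per kb in the sds3 deletion group and 261 in wild type, and acu-3 has 114 in the eaf-3 deletion group and 560 in wild type.

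acu-5, which encodes the entry enzyme acetyl-CoA synthetase, had implied group means of 2022 in the sds3 deletion group, 4816 in that of rlp1, 5535 in that of rlp2, 5112 in that of eaf-3 and 6321 in wild type, in normalized signal. The sds3 deletion group is the low one, and the other 3 deletion groups lie near each other and under wild type. By the authors' deposited table acu-5 fell by 1.64 ± 0.25 on the log2 scale in the sds3 deletion strains (adjusted p = 1.22e-09), which is 3.13-fold lower (95% interval 2.23 to 4.38). It ranked 263 of 9109 genes by p in that table. Its other values in the authors' deposited tables were -0.39 ± 0.25 for rlp1, -0.19 ± 0.25 for rlp2, -0.31 ± 0.25 for eaf-3 and -0.35 ± 0.30 for TSA, and none of them passed (adjusted p from 0.247 to 0.711).

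acu-3 encodes isocitrate lyase, which splits isocitrate into glyoxylate and succinate. Its implied group means were 989 in the sds3 deletion group, 1321 in that of rlp1, 941 in that of rlp2, 334 in that of eaf-3 and 1638 in wild type. The eaf-3 deletion group stands lowest, and wild type highest. In the authors' deposited table acu-3 fell by 2.29 ± 0.32 in the eaf-3 deletion strains (adjusted p = 3.21e-11), which is 4.91-fold lower (95% interval 3.18 to 7.57). It is among 11.5% of tested genes that were lower there, but among only 0.318% that also met the authors' fold limit in their own category. Its values in the authors' deposited tables were -0.73 ± 0.32 for sds3 (adjusted p = 0.0596), -0.80 ± 0.32 for rlp2 (adjusted p = 0.0808) and -0.31 ± 0.32 for rlp1 (adjusted p = 0.508). The sds3 value is close to the threshold: centred on the median of all genes it is -0.80 with an adjusted p of 0.0357. It did not pass without a filter (adjusted p = 0.062) or among genes with an average of at least 20 (adjusted p = 0.0537). Under TSA the value in the authors' deposited table was 0.76 ± 0.45 (adjusted p = 0.354).

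acu-9 encodes malate synthase, which joins glyoxylate with acetyl-CoA. Its implied group means were 9077 in the sds3 deletion group, 1892 in that of rlp1, 2461 in that of rlp2, 2103 in that of eaf-3 and 1866 in wild type. One deletion group is thus far above the rest, which lie close together. The authors' deposited table has acu-9 risen by 2.28 ± 0.28 in the sds3 deletion strains (adjusted p = 1.04e-13), which is 4.86-fold (95% interval 3.30 to 7.16), rank 100 of 9109 by p. The values in the authors' deposited tables were 0.02 ± 0.29 for rlp1, 0.40 ± 0.29 for rlp2 and 0.17 ± 0.29 for eaf-3, with adjusted p from 0.428 to 0.978. For rlp1 the 95% interval of the fold change ran from 0.688 to 1.49. Under TSA the authors' deposited table gives 0.73 ± 0.38 (adjusted p = 0.266).

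acu-6 encodes PEP carboxykinase, the step from the organic acids to gluconeogenesis, and the gene table used for symbols also lists it under the names pck-1 and con-3. Its implied group means were 10468 in the sds3 deletion group, 7574 in that of rlp1, 2678 in that of rlp2, 1769.7 in that of eaf-3 and 913 in wild type. Wild type is the lowest of the 5 groups. In the authors' deposited table acu-6 rose by 3.52 ± 0.29 in the sds3 deletion strains (adjusted p = 5.45e-31), which is 11.5-fold (95% interval 7.72 to 17.0). It rose by 3.05 ± 0.29 in the rlp1 deletion strains (adjusted p = 2.84e-23), or 8.29-fold (5.59 to 12.3), in the authors' deposited table. These changes ranked 17 of 9109 and 28 of 8925 genes by p.

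The rises of acu-6 were smaller in the other comparisons. By the authors' deposited tables it rose by 1.55 ± 0.29 in the rlp2 deletion strains (adjusted p = 6.36e-06, 2.93-fold) and by 0.95 ± 0.29 in the eaf-3 deletion strains (adjusted p = 0.00583, 1.94-fold). With TSA it rose by 1.53 ± 0.46 against the untreated strain in the authors' deposited table (adjusted p = 0.0154), which is 2.89-fold (95% interval 1.55 to 5.40). This last comparison has its own control libraries. Its adjusted p ran from 0.00986 to 0.0167 over the alternatives that recompute it.

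acu-15 encodes the activator of acetate-induced transcription, and its own transcript passed in no comparison. The implied group means were 1319 in the sds3 deletion group, 1135 in that of rlp1, 1211 in that of rlp2, 746 in that of eaf-3 and 989.8 in wild type. Its values by the authors' deposited tables were 0.41 ± 0.27 for sds3, 0.20 ± 0.27 for rlp1, 0.29 ± 0.27 for rlp2, -0.41 ± 0.27 for eaf-3 and 0.32 ± 0.34 for TSA. The deposited adjusted p ran from 0.234 to 0.683, and 0 of the 5 values had an unadjusted p under 0.05 in the authors' deposited tables, whose test is not stated in them. For sds3, where 3 enzyme genes passed, the 95% interval of its fold change was 0.926 to 1.92.

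Whether the comparisons differ from each other was tested for each gene as the difference of their log2 fold changes, over 10 pairs of comparisons, with p-values adjusted over all genes of a pair. For acu-9 the sds3 deletion differed from each other comparison. The difference was 1.88 ± 0.40 for sds3 minus rlp2 (adjusted p = 0.000276), -2.26 ± 0.40 for rlp1 minus sds3 (adjusted p = 3.82e-06), -2.11 ± 0.40 for eaf-3 minus sds3 (adjusted p = 5.84e-06) and -1.55 ± 0.48 for TSA minus sds3 (adjusted p = 0.0158). The change of acu-5 in the sds3 deletion, a fall, likewise differed from that in each of the other 4, where acu-5 did not pass. Its differences were -1.45 ± 0.35 for sds3 minus rlp2 (adjusted p = 0.00164), 1.25 ± 0.35 for rlp1 minus sds3 (adjusted p = 0.0085), 1.34 ± 0.35 for eaf-3 minus sds3 (adjusted p = 0.00174) and 1.29 ± 0.39 for TSA minus sds3 (adjusted p = 0.0141).

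For acu-3 it was the eaf-3 deletion that differed from all others. The difference was -1.57 ± 0.45 for eaf-3 minus sds3 (adjusted p = 0.00493), -1.98 ± 0.45 for eaf-3 minus rlp1 (adjusted p = 0.000245), -1.50 ± 0.45 for eaf-3 minus rlp2 (adjusted p = 0.014) and 3.06 ± 0.56 for TSA minus eaf-3 (adjusted p = 3.93e-06). The 3 pairs among sds3, rlp1 and rlp2 did not pass, with differences of 0.07 to 0.49. TSA minus sds3 was 1.49 ± 0.55 for this gene (adjusted p = 0.0594).

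For acu-6 the deletions fell into an order with steps of unequal firmness. The rlp1 minus sds3 difference of -0.47 ± 0.41 did not pass (adjusted p = 0.569, 95% interval -1.27 to 0.34). The rlp1 minus rlp2 difference of 1.50 ± 0.41 passed (adjusted p = 0.0331), and the eaf-3 minus rlp2 difference of -0.60 ± 0.41 did not (adjusted p = 0.473, 95% interval -1.41 to 0.21). Across the larger steps, sds3 minus rlp2 was 1.97 ± 0.41 (adjusted p = 0.000179), eaf-3 minus sds3 was -2.56 ± 0.41 (adjusted p = 3.32e-08) and eaf-3 minus rlp1 was -2.10 ± 0.41 (adjusted p = 1.39e-05). TSA raised acu-6 less than the sds3 deletion did, by a difference of -1.99 ± 0.54 (adjusted p = 0.00576). The TSA value was not told apart from that of rlp2 (-0.02 ± 0.54, 95% interval -1.09 to 1.05), of eaf-3 (0.58 ± 0.55) or of rlp1 (-1.52 ± 0.54, adjusted p = 0.0708). acu-15 passed in 0 of the 10 pairs, with a smallest adjusted p of 0.111 and 1 unadjusted p under 0.05 from this normal test. With a covariance for the shared wild type libraries, it passed for eaf-3 minus sds3 (-0.82, adjusted p = 0.0083) and for eaf-3 minus rlp2 (-0.70, adjusted p = 0.0429).

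Counted by pair, 4 of the 5 genes differed for eaf-3 minus sds3, where 20.3% of all genes did, and 3 for sds3 minus rlp2 (7.43% of all genes) and for TSA minus sds3 (11.0%). There were 2 for rlp1 minus sds3 (10.2%) and for eaf-3 minus rlp1 (13.0%). There was 1 for rlp1 minus rlp2 (0.990%), for eaf-3 minus rlp2 (9.41%) and for TSA minus eaf-3 (12.2%). For TSA minus rlp1 and TSA minus rlp2 it was 0 in this normal test, with 5.90% and 4.64% of all genes and 1 gene at an unadjusted p under 0.05 in each. TSA and the deletions differ in strain and in control, which cannot be told apart from the treatment in these differences.

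**Figure D3:**
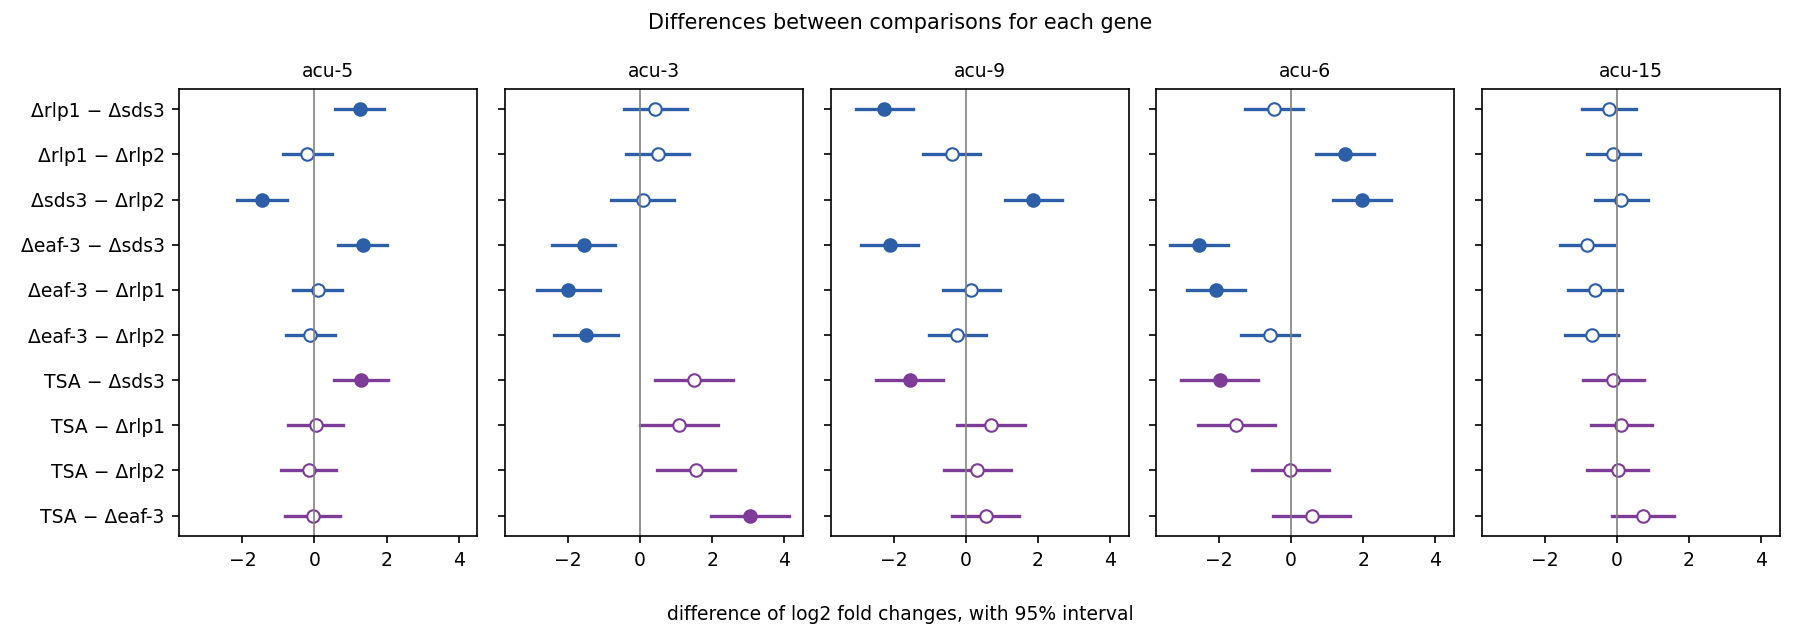
Difference of log2 fold changes between 2 comparisons (x axis) with its 95% interval, for each gene (panels) and pair (rows); blue pairs share wild type libraries, purple pairs involve TSA, and filled points have an adjusted p under 0.05. For acu-9 and acu-5 the filled points are the 4 pairs that include the sds3 deletion, and for acu-3 the 4 that include the eaf-3 deletion.

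Other genes of central carbon metabolism were taken by symbol from the gene table. The remaining measured acu gene, acu-8 (NCU09770), encodes acetyl-CoA hydrolase. It fell by 1.08 ± 0.26 in the eaf-3 deletion strains (adjusted p = 0.000264) and by 0.98 ± 0.26 in the rlp1 deletion strains (adjusted p = 0.00133) in the authors' deposited tables. Its values there were 0.19 ± 0.26 for sds3, -0.30 ± 0.26 for rlp2 and -0.38 ± 0.22 for TSA, none past the test. acu-8 thus passed where acu-5 did not, and acu-5 where acu-8 did not. For rlp1 and eaf-3 acu-5 was also negative, at -0.39 and -0.31, and the 2 genes were not tested against each other.

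The ace genes, named after mutants that need acetate and in several cases coding for subunits of pyruvate dehydrogenase, did not rise in any comparison. Of 4 measured, 2 fell in the sds3 deletion strains, 2 in those of rlp1, 0 in those of rlp2, 1 in those of eaf-3 and 0 with TSA. At an unadjusted p under 0.05 those 2 zeros become 0 and 1. For sds3, rlp1, rlp2, eaf-3 and TSA in turn, 15.7%, 8.61%, 4.02%, 11.5% and 3.62% of all genes were lower. The shares of all genes that were higher were 19.0%, 14.6%, 6.99%, 20.2% and 5.15%. With 4 genes, the counts are too few to set apart from such shares. ace-2 fell by 0.66 ± 0.17 in the rlp1 deletion strains in the authors' deposited table (adjusted p = 0.00149). ace-4 fell by 0.78 ± 0.19 in the eaf-3 deletion strains in the authors' deposited table (adjusted p = 0.000601), and ace-3 fell by 0.71 ± 0.29 in those of sds3 (adjusted p = 0.0427). ace-8, which encodes pyruvate kinase, passed in no table, with values in the authors' deposited tables from -0.97 ± 0.41 for TSA to 0.35 ± 0.34 for eaf-3. The median over the 4 genes was -0.40 for sds3, -0.66 for rlp1, -0.34 for rlp2, -0.33 for eaf-3 and -0.14 for TSA.

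Genes of the tricarboxylic acid cycle, which shares isocitrate and malate with the glyoxylate cycle, fell in the deletion strains where they passed at all. Of 17 genes 1 fell in the sds3 deletion strains, 5 in those of rlp1, 3 in those of rlp2 and 8 in those of eaf-3, and none rose in these 4 tables. The share of all genes that were lower was 15.7% for sds3, 8.61% for rlp1, 4.02% for rlp2 and 11.5% for eaf-3. The count of falls for sds3 is under its share. The share that were higher was 19.0%, 14.6%, 6.99% and 20.2% in the same order. With TSA 2 rose, where 5.15% of all genes did, and none fell, where 3.62% of all genes did. The median over the list was -0.16, -0.56, -0.27 and -0.46 for sds3, rlp1, rlp2 and eaf-3 and 0.17 for TSA, while that of all genes tested was 0.07, 0.01, -0.01 and 0.07 for the deletions and -0.08 for TSA.

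The falls of the tca genes with the smallest adjusted p were as follows. In the authors' deposited table for eaf-3 tca-11 (NCU07756) fell by 2.77 ± 0.60 (adjusted p = 5.05e-05), tca-13 (NCU03031) by 2.65 ± 0.48 (adjusted p = 7.03e-07) and tca-12 (NCU08336) by 2.26 ± 0.53 (adjusted p = 0.000183). The authors' deposited table for rlp2 has the same 3 genes lower, at -2.02 ± 0.60, -1.68 ± 0.48 and -1.82 ± 0.53. In that for rlp1 they were lower as well, at -1.88 ± 0.60, -1.60 ± 0.48 and -1.49 ± 0.53. For sds3 the authors' deposited table gives 0.28 ± 0.60, 0.07 ± 0.48 and -0.18 ± 0.53, none past the test. acu-3 shares with these genes its strongest fall in the eaf-3 deletion strains, but it did not pass in those of rlp1 or rlp2. With TSA tca-17 (NCU00720) rose by 1.00 ± 0.21 in the authors' deposited table (adjusted p = 0.000102).

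Other genes of glycolysis and gluconeogenesis were counted beside acu-6. Of 10 measured genes 2 rose and 1 fell in the sds3 deletion strains, where 19.0% of all genes were higher and 15.7% lower, 1 rose in those of rlp1 (14.6% of all genes), and 0 passed with rlp2, eaf-3 or TSA. At an unadjusted p under 0.05 those 3 zeros were 0, 1 and 0. In these 3 comparisons 6.99%, 20.2% and 5.15% of all genes were higher, and 4.02%, 11.5% and 3.62% lower. In the authors' deposited table fbp-1 (NCU04797), whose product fructose-1,6-bisphosphatase acts later in gluconeogenesis, rose by 1.10 ± 0.42 in the sds3 deletion strains (adjusted p = 0.029). Its values in the authors' deposited tables were 0.60 ± 0.42 for rlp1, 0.80 ± 0.42 for rlp2, -0.06 ± 0.42 for eaf-3 and 0.11 ± 0.54 for TSA, none past the test. suc, the pyruvate carboxylase gene that supplies oxaloacetate, fell by 0.78 ± 0.29 in the sds3 deletion strains in the authors' deposited table (adjusted p = 0.0229). cfp, which encodes pyruvate decarboxylase, rose by 0.85 ± 0.29 in the sds3 deletion strains (adjusted p = 0.0153) and by 1.08 ± 0.29 in those of rlp1 (adjusted p = 0.00219) in the authors' deposited tables. gpd-1, for glyceraldehyde-3-phosphate dehydrogenase, passed in no table. adh-1, an alcohol dehydrogenase gene, rose by 1.63 ± 0.53 in the rlp1 deletion strains in the authors' deposited table (adjusted p = 0.0133).

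**Figure D4:**
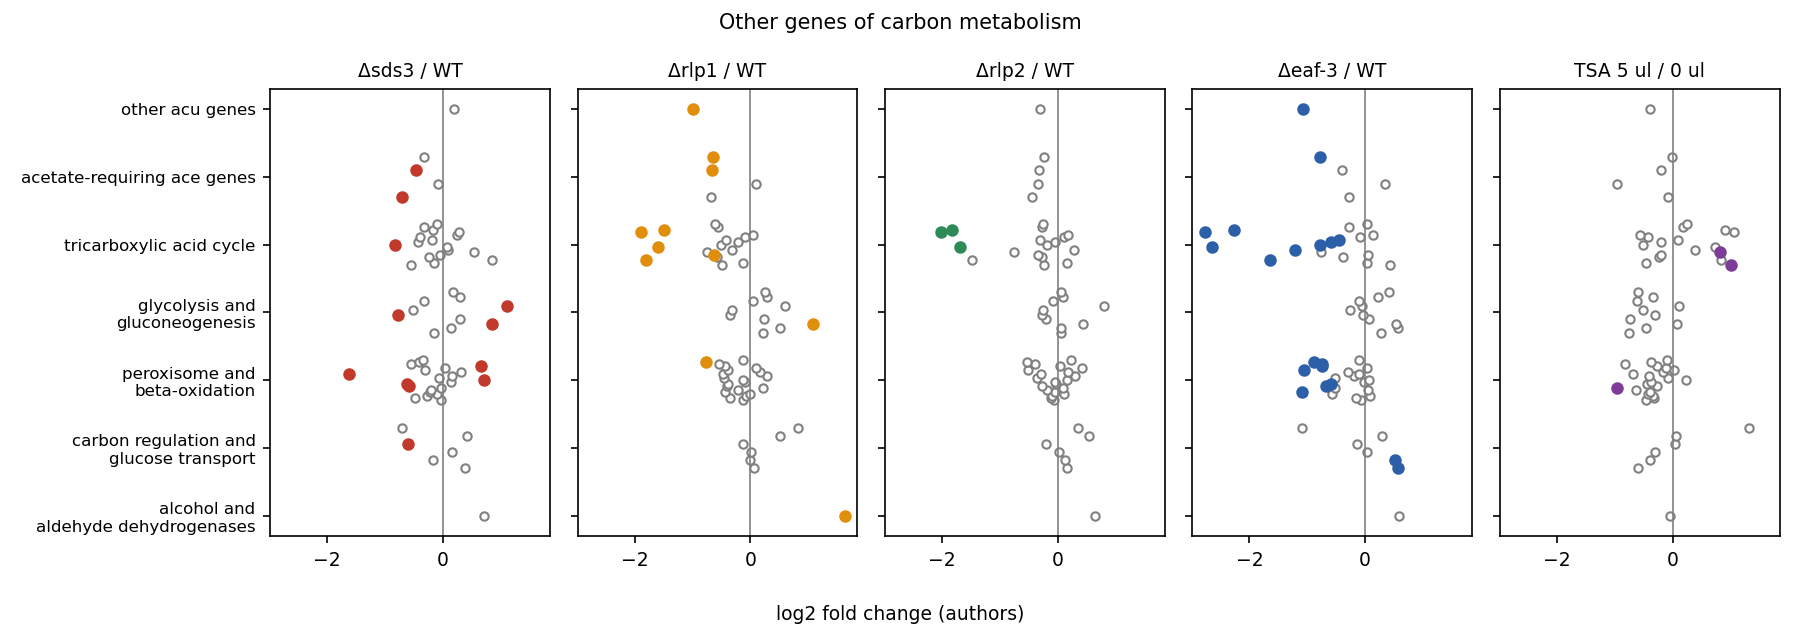
Log2 fold change (x axis) of each measured gene of 7 lists (rows) in the authors' deposited table of each comparison (panels); coloured points have an adjusted p under 0.05 and grey open points do not. In the panel for eaf-3 8 tricarboxylic acid cycle genes and 7 peroxisome genes are coloured, all left of 0.

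Peroxisome genes were counted because enzymes of the glyoxylate cycle are housed in glyoxysomes, a form of peroxisome, in this fungus. Of 21 genes (pex genes and fox-2) 7 fell and 0 rose in the eaf-3 deletion strains, where 11.5% of all genes were lower, with a median of -0.29. In the sds3 deletion strains 2 rose and 3 fell, in those of rlp1 0 rose and 1 fell, in those of rlp2 0 passed, also at an unadjusted p under 0.05, and with TSA 0 rose and 1 fell. For sds3, rlp1, rlp2 and TSA in turn, 19.0%, 14.6%, 6.99% and 5.15% of all genes were higher. The shares lower were 15.7%, 8.61%, 4.02% and 3.62%, and 20.2% were higher for eaf-3. The counts for sds3, rlp1 and TSA are near or under these shares. By the authors' deposited table pex2 (NCU02070), for a peroxisomal membrane ring protein, fell by 1.08 ± 0.19 in the eaf-3 deletion strains (adjusted p = 2.23e-07). pex5, which encodes the import receptor for matrix proteins, fell by 0.67 ± 0.20 in the eaf-3 deletion strains (adjusted p = 0.00468) and by 0.59 ± 0.20 in those of sds3 (adjusted p = 0.0124) in the authors' deposited tables. pex10 fell in the same 2 comparisons, by 0.59 ± 0.18 for eaf-3 and 0.63 ± 0.19 for sds3 in the authors' deposited tables.

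Regulators of carbon use gave counts too small to set apart from those of all genes. Of 6 genes, among them the glucose transporter gene hgt-1, 1 fell in the sds3 deletion strains (15.7% of all genes) and 2 rose in those of eaf-3 (20.2% of all genes), and 0 passed with rlp1, rlp2 or TSA, where 1, 1 and 2 had an unadjusted p under 0.05. cre-1, which encodes the carbon catabolite repressor, passed in no table, with values in the authors' deposited tables of 0.42 ± 0.21 for sds3, 0.51 ± 0.21 for rlp1 (adjusted p = 0.0537), 0.53 ± 0.21 for rlp2, 0.29 ± 0.21 for eaf-3 and 0.06 ± 0.31 for TSA. The glucose-response regulator gene col-26 fell by 0.60 ± 0.21 in the sds3 deletion strains in the authors' deposited table (adjusted p = 0.0195). vib-1 rose by 0.57 ± 0.18 (adjusted p = 0.00782) and the corepressor gene rco-1 by 0.52 ± 0.17 (adjusted p = 0.0107) in the eaf-3 deletion strains in the authors' deposited table.

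Because con-3 is a listed name of acu-6 and con genes are expressed during conidiation, the 4 genes with a con symbol (con-6, con-8, con-10 and con-13) were set beside it, a choice made after values were seen. Of these, 3 rose in the sds3 deletion strains, 4 in those of rlp1, 1 in those of rlp2, 2 in those of eaf-3 and 1 with TSA, and none fell. In the same order 19.0%, 14.6%, 6.99%, 20.2% and 5.15% of all genes were higher. For rlp2 con-13 was at -0.38 ± 1.32 in the authors' deposited table (adjusted p = 0.913). The median log2 fold change of the 4 con genes was 3.64 for sds3, 4.02 for rlp1, 1.53 for rlp2, 1.88 for eaf-3 and 1.51 for TSA. Their summed implied signal was 6196 in the sds3 deletion group, 8211 in that of rlp1, 3158 in that of rlp2, 3440.5 in that of eaf-3 and 496 in wild type. The sum was above wild type in each deletion group, as acu-6 was, but all groups were set against the same wild type. By point values alone the order of the groups differed, but the sum carries no error and the orders were not tested against each other. The sum was highest for rlp1 and higher for eaf-3 than for rlp2. The implied mean of acu-6 was highest for sds3 (10468) and higher for rlp2 (2678) than for eaf-3 (1769.7). For acu-6 neither the rlp1 minus sds3 nor the eaf-3 minus rlp2 difference passed the normal test (adjusted p = 0.569 and 0.473). The part of the con genes in the acu-6 result was not tested.

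Flanking genes were read to see whether a change extended along the chromosome, from the gene order of the NC12 assembly. acu-6 rose in all 5 tables, and the 3 of its neighbours with an adjusted p in every table did not. The other neighbour, NCU09872, had no adjusted p for rlp2 or TSA and did not pass for sds3, rlp1 or eaf-3. By the authors' deposited tables NCU10012 next to it rose by 0.85 ± 0.18 in the sds3 deletion strains (adjusted p = 2.76e-05) and fell by 0.52 ± 0.19 in those of eaf-3 (adjusted p = 0.0212). NCU17105, 2 genes away on the other side, fell by 1.73 ± 0.27 in the sds3 deletion strains (adjusted p = 2.78e-09) and rose by 2.16 ± 0.50 with TSA (adjusted p = 0.000595) in the authors' deposited tables. NCU10011 rose by 0.76 ± 0.25 in the sds3 deletion strains and by 1.20 ± 0.25 in those of rlp1 in the authors' deposited tables (adjusted p = 0.0114 and 3.91e-05).

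None of the 3 neighbours of acu-9 with an adjusted p rose in the sds3 deletion strains. tca-14, the gene next to it, was at -0.11 ± 0.28 there in the authors' deposited table (adjusted p = 0.807). The kinase gene stk-53 (NCU09064), 2 genes from acu-9, rose by 5.95 ± 0.45 in the eaf-3 deletion strains in the authors' deposited table (adjusted p = 2.38e-36), where acu-9 itself was at 0.17 ± 0.29. In the eaf-3 deletion strains no neighbour of acu-3 passed, and in those of sds3 no measured neighbour of acu-5 did. NCU15665, next to acu-5, was not measured. Of all genes 20.2% were higher and 11.5% lower for eaf-3, and 19.0% and 15.7% for sds3. With so few neighbours per gene, these counts cannot be set apart from such shares. NCU06658, 2 genes from acu-15, rose by 1.33 ± 0.27 in the rlp1 deletion strains in the authors' deposited table (adjusted p = 1.68e-05).

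**Figure D5:**
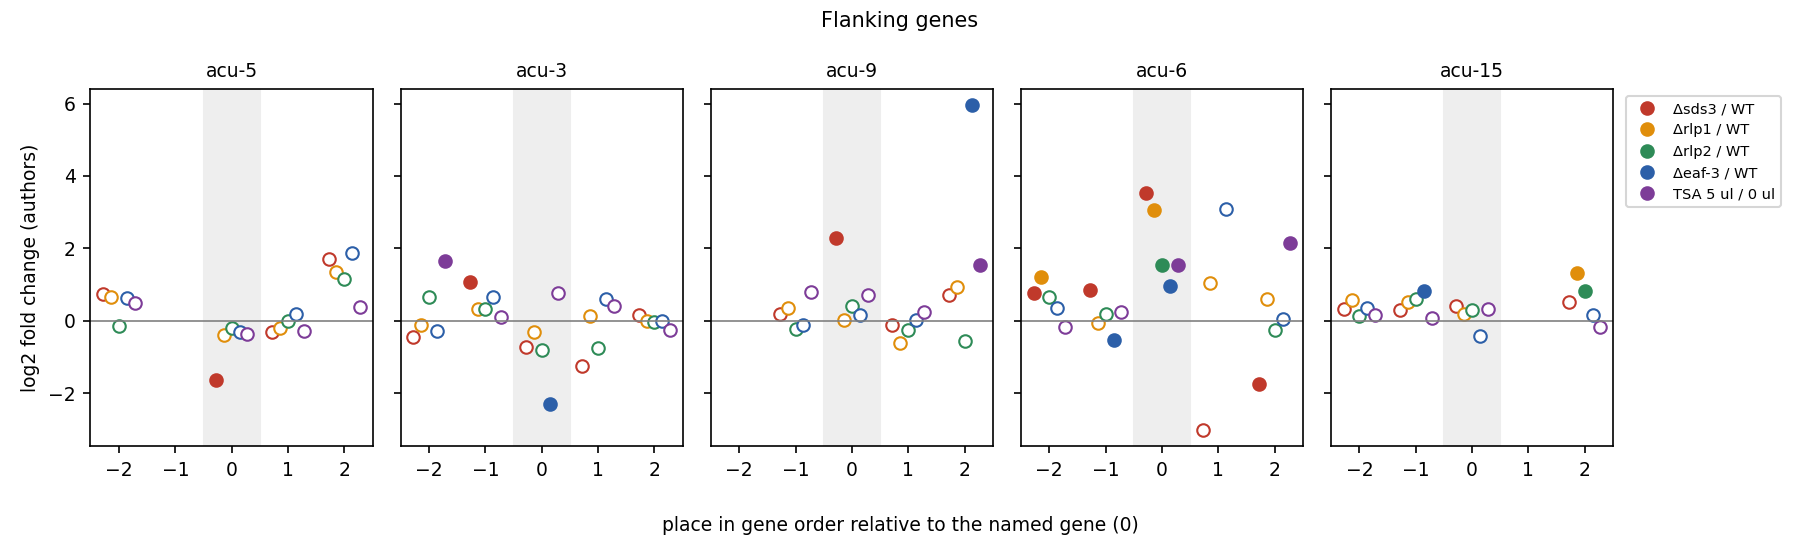
Log2 fold change in the authors' deposited tables (y axis) of each named gene (place 0, grey band) and of the genes 1 and 2 places away (x axis) in the 5 comparisons (colours); filled points have an adjusted p under 0.05, and genes without one are left out. acu-6 has 5 filled points from 0.95 to 3.52, and the point at 5.95 beside acu-9 is stk-53 in the eaf-3 comparison.

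The genes most like each of the 5 in their pattern were found by the root mean square difference of the log2 fold changes over the 5 comparisons, among 7759 genes with an adjusted p in every table and an average of at least 20. Nearest to acu-6 was NCU09403 (difference 0.33), with 4.13, 3.10, 1.94, 0.77 and 1.48 for sds3, rlp1, rlp2, eaf-3 and TSA in the authors' deposited tables. Next came mus-18 (0.44), which encodes a repair endonuclease for UV damage, and NCU09358 (0.46). Nearest to acu-9 were NCU09864 (0.21), NCU09347 (0.27) and aod-1 (0.31), the alternative oxidase gene, which had 2.61, 0.42, 0.07, 0.47 and 0.59 in the same order in the authors' deposited tables. Nearest to acu-3 were NCU03603 (0.20), NCU02481 (0.34) and the ornithine carbamoyltransferase gene arg-12 (0.34). Nearest to acu-5 were NCU07015 (0.08), NCU06342 (0.14) and NCU16555 (0.17), and to acu-15 NCU04855 (0.12), NCU11282 (0.13) and NCU02058 (0.14). None of the 5 genes was among the 3 nearest of another. With only 3 places among 7759 genes, this says little on whether the 5 genes share a pattern.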

How the data were processed

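The tools STAR 2.7.3a, RSEM 1.3.1, DESeq2 1.24.0 appear, without roles or settings, per the submitters' processing notes. The build, the annotation and the strand setting were not given in the sources used here. The library kit, per the labels' protocols, was stranded and selected mRNA. Per the file headers, the 5 deposited tables hold, by gene, the authors' average normalized signal, the log2 fold change with its p-value and FDR (here the adjusted p), and a category score. All 4 deletion tables share 1 average. A gene has a category other than 0 if its FDR is under 0.05 with an absolute log2 fold change over 2, and no other gene has. Columns of values per library numbered 0, so depth is unknown, no replicate could be left out and overlapping genes could not be checked.

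The standard error is the absolute log2 fold change over the normal quantile of the deposited p-value. Because a gene's errors barely differ between the deletion tables, they rest on a spread pooled over groups. Differences between comparisons used a two-sided normal test that treats both errors as independent, adjusted by Benjamini-Hochberg over all genes of the pair. Its calculation was checked on simulated data with known differences, drawn with the independent normal errors that the test assumes. That check cannot show whether such errors hold for the real libraries. For pairs that share wild type libraries the independent error is on the wide side. Each deletion group is made of 2 strains; whether cultures were grown apart is not given for them.

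The RefSeq gene table (assembly NC12) held 9551 of the 9552 identifiers as locus tags and was used for symbols, gene spans and gene order. Named were the 5 genes in all comparisons, up to 4 genes per list with the smallest adjusted p in any table, 2 neighbours on each side, and the 3 genes nearest in pattern. A gene that this rule names is not reported here. The genes, lists and tests were chosen with earlier results of these data known. Alternatives were a threshold of 0.01, the authors' category, centring on the median, no filter, an average of at least 20 and, for differences, a covariance for the shared wild type. Calculations used Python 3.11.15, numpy 2.4.6, pandas 2.3.3 and scipy 1.17.1.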

Additional observations from a re-analysis of the deposited data

How the results depend on the processing

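Without a filter, and with only genes of an average of at least 20, the counts of called genes and the calls of all 5 genes stayed as reported. In the authors' category, which also asks for an absolute log2 fold change over 2, the count of lower genes for sds3 and of higher genes for rlp2, eaf-3 and TSA was 0 each, since acu-5 and acu-6 had smaller changes there. With adjusted p under 0.01 the count of higher genes for TSA was 0, those for rlp1 minus rlp2 and eaf-3 minus rlp2 were 0, and that for TSA minus sds3 was 1. Centring on the median gave 2 lower genes for sds3, because acu-3 then passed. The shared wild type covariance, which narrows the error, gave 2 genes for eaf-3 minus rlp2, with acu-15 at -0.70 (adjusted p = 0.0429), and acu-15 also passed for eaf-3 minus sds3 at -0.82 (adjusted p = 0.0083). Under centring acu-3 also passed for TSA minus sds3, at 1.64 (adjusted p = 0.0336). Centring turned the sign of 4 differences near 0 that passed under neither setting: acu-3 for sds3 minus rlp2 (-0.013), acu-15 for TSA minus sds3 (0.055), acu-6 for TSA minus rlp2 (0.041) and acu-5 for TSA minus eaf-3 (0.10). No paired analysis was possible because the tables hold no values per library, and leaving out each replicate was not run for the same reason. Depth per library is unknown, and the smallest change these data could show was not worked out.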
